A study of Mus musculus with 16 samples.

Results

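Skeletal muscle genes were followed in RNA from whole dorsal skin of mice. The list held 45 genes of muscle fibres, chosen by what their proteins do, though with earlier results of these data known. They were found by Ensembl identifier among the 55359 genes of the count tables. Of the 45, 14 encode proteins of fast fibres, 8 encode proteins of slow fibres and 23 encode proteins of both.

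Beneath its fat, mouse back skin carries a thin sheet of skeletal muscle, the panniculus carnosus, which twitches the skin. A fibre contracts when thick filaments of myosin pull on thin filaments of actin, tropomyosin and troponin. Calcium released from the sarcoplasmic reticulum starts a contraction, and its return ends it. Fast and slow fibres build the same machine from different genes. Fast fibres have their own myosin heavy chains, troponins, calcium pump and the calcium buffer parvalbumin and draw on glycogen, whereas slow fibres use Myh7 and its partners.

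The mice were WT C57Bl/6 by the labels, C57Bl/6N by the study's text, and 8 weeks old. The study's text reports resting hair follicles (telogen) for its migration experiments and does not give the stage for the RNA libraries. There were 4 groups of 4 mice: UVB males and UVB females, whose backs were irradiated 3 times, and no-UVB males and no-UVB females as controls. According to the study's methods the skin was taken within hours of the last exposure and each library came from its own mouse. The question was how the skin of each sex responds to UVB.

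Gene reads per library numbered 16495776 to 33404831. Levels are CPM, the counts scaled by TMM to a common library size, and levels of different genes are compared per length, as CPM per kb of the main transcript. Sums over a list, and ratios of such sums, are in CPM and weigh long genes more. Differences are log2 fold changes ± standard error, tested by quasi-likelihood in edgeR. A gene is said to have risen or fallen at a Benjamini-Hochberg adjusted p under 0.1 over all genes tested. Counts that also ask for a log2 fold change past 1 are given separately. The study set that threshold on fold changes shrunk by apeglm, whereas the edgeR fold changes here are not shrunk. In whole tissue, fewer fibres and less RNA per fibre cannot be told apart. Reads that mapped to several places were not counted, so levels of near-identical genes are uncertain, among them the neighbours Myh1, Myh2 and Myh4 and the actin Acta1.

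The bases before the transcript start are shown for 2 pairs of genes, Myh4 with Myh1 and Ckm with Mb. In each pair the first fell in UVB males and the second did not pass the test, and the difference within a pair was not tested. Myh4 and Myh1 encode the myosin heavy chains of the fastest and the next fastest fibres and lie close together on chromosome 11. Ckm encodes muscle creatine kinase, which renews ATP, and Mb encodes myoglobin, which stores oxygen. The 250 bases end just before the start of the Ensembl canonical transcript in GRCm39 and read 5′ to 3′ on the gene's strand. They lie at chr11:67131173-67131422 (plus strand) for Myh4, chr11:67090678-67090927 (plus strand) for Myh1, chr7:19144583-19144832 (plus strand) for Ckm and chr15:76906988-76907237 (minus strand) for Mb. Each of these genes is annotated from further upstream, so its stretch lies inside the gene. Which start is used in this skin was not checked, here or for the other members. Capitals mark the muscle E-box (CAGCTG), the TATA box (TATAAA), the MCAT motif (CATTCC) and the MEF2 site, each on either strand.
Myh4: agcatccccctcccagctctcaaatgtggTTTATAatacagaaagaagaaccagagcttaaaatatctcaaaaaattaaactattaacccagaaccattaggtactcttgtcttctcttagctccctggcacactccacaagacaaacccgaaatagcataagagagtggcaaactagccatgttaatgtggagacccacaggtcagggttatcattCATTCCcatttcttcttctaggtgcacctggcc
Myh1: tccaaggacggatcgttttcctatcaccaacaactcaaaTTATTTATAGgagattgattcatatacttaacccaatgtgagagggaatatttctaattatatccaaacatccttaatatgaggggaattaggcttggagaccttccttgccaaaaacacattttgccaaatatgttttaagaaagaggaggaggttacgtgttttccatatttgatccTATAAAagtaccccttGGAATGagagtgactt
Ckm: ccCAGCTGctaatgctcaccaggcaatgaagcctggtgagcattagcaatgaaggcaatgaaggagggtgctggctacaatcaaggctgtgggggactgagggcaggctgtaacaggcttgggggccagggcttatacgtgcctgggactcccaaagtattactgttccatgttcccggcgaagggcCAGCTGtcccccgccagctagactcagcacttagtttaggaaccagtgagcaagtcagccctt
Mb: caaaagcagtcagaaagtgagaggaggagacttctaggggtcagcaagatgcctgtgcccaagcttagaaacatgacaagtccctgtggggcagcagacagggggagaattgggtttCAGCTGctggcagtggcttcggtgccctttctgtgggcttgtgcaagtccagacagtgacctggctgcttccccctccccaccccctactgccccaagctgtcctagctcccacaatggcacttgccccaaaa

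Over the same 250 bases, 8 of 41 tested muscle genes held a MEF2 site, the motif of a family of muscle transcription factors, against 2.15% of the 14953 tested protein-coding genes. CAGCTG, an E-box that myogenic factors such as MyoD read and one form of the general CANNTG, stood before 11 of the 41 and before 11.8% of all. CANNTG itself stood before 32 of the 41 and 61.5% of all. TATAAA stood before 7 of the 41 and 8.08% of all, CATTCC (MCAT) before 8 of the 41 and 11.8% of all, and the SRF site before 2 of the 41 and 1.14% of all. In Myh1 a match of TATAAA overlaps the MEF2 match. Of the 34 members that fell in UVB males, described next, 9 held CAGCTG and 7 a MEF2 site. Of the 7 tested members that did not fall, 2 held CAGCTG and 1 a MEF2 site. Both Ckm, which fell, and Mb, which was not called, held CAGCTG.

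Muscle RNA was abundant in this skin. The 45 genes took 4.03 to 4.47% of gene reads in no-UVB males and 2.88 to 4.12% in no-UVB females. Per length, the mean over all libraries was highest for skeletal actin Acta1 (3004 CPM per kb), followed by the fast regulatory light chain Mylpf (1098 CPM per kb), the fast troponins Tnni2 (1091 CPM per kb), Tnnc2 (1050 CPM per kb) and Tnnt3 (968 CPM per kb), the fast calcium pump Atp2a1 (826 CPM per kb), the fast essential light chain Myl1 (727 CPM per kb), Myh4 (629.6 CPM per kb) and Myh1 (495 CPM per kb). Mylpf, Tnni2 and Tnnc2 lay closer to each other than the SD of each within any group.

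For most pairs of fast and slow forms nearly all RNA was of the fast form. Per length, fast troponin T made 99.7 to 99.9% of Tnnt3 and Tnnt1 together, and fast troponin I and fast troponin C each made at least 99.9% of their pairs. The myosin binding proteins were an exception, with fast Mybpc2 at 31.1 to 52.4% of its pair with slow Mybpc1 over all libraries. Slow myosin Myh7 had at most 2 counts in a library. It was at 0 counts in all 4 UVB males, which allows up to 0.0898 to 0.182 CPM per library (3 counts, counting error only). The slow light chains Myl2 and Myl3 and slow troponin C, Tnnc1, reached at most 3, 9 and 14 counts, and with Myh7 were too low to test. The CPM sum of the slow list rested on Mybpc1 (523 CPM), a myosin binding protein, and Myoz2 (26.9 CPM), a Z-disc protein. Without them the sum was 1.94 to 4.76 CPM. Of the 45 genes, 41 were tested in males and over all 16 libraries, and 40 in females, where slow troponin I, Tnni1, was too low.

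In male skin most muscle genes fell after UVB. Of 41 members tested, 34 fell and 0 rose, against 30.5% of the 16535 genes tested that fell and 29.0% that rose. The 34 were 12 of 14 fast, 2 of 4 slow and 20 of 23 shared genes. The median log2 fold change was -0.50 over the members and -0.02 over all genes tested. By DESeq2's Wald test 34 fell and 1, Myh1, rose, and 0 rose at an unadjusted p under 0.05 in edgeR. In 31 of the 41 every UVB male lay under every no-UVB male, as in 24.3% of genes. The 34 varied between 31 and 35 under the alternatives tried. With the fold threshold on unshrunk values 5 members fell (Actn3, Myh4, Mybpc2, Ampd1 and Pvalb) and 0 rose, against 3.31% and 4.08% of genes. These 5 became 1 without UVB male replicate 1, 2 without no-UVB male replicate 2 and 1 with apeglm shrinkage.

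The summed level of the 45 genes was 44350, 47790, 40840 and 43150 CPM in the no-UVB males and 29410, 33860, 31010 and 30060 CPM in the UVB males. The highest UVB male lay under the lowest no-UVB male. As a plain share of gene reads, without TMM scaling, the members took 2.83 to 3.22% in UVB males against 4.03 to 4.47% in no-UVB males. The fast sum was 19450 to 24180 CPM without UVB and 13410 to 16060 CPM after it. The ratio of the fast to the slow CPM sum was 35.1 ± 2.33 (mean ± SD over the 4 mice) in males without UVB and 29.1 ± 1.54 in those irradiated, and 30.0 ± 1.74 in no-UVB females and 32.0 ± 1.99 in UVB females. Its log2 change was -0.27 in males and 0.09 in females, and without the highest gene of each list it was -0.52 and -0.0736, so that the direction in females turned. The slow sum was mostly Mybpc1 (523 CPM), its highest gene, and without Mybpc1 it was mostly Myoz2 (26.9 CPM). Neither ratio is therefore a measure of fast against slow fibres.

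**Figure D1:**
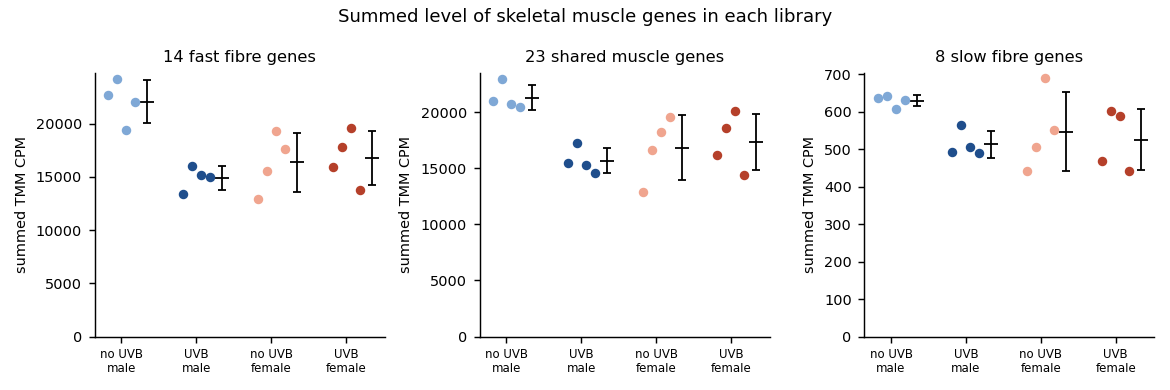
Summed TMM CPM of the 14 fast, 23 shared and 8 slow fibre genes (y axes, from 0) in each library of the 4 groups, with the mean and SD of 4 libraries beside the dots. In all 3 panels the UVB males lie under the no-UVB males, for the fast genes at 13410 to 16060 against 19450 to 24180, while the groups of females overlap.

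Among the myosin heavy chains, which form the motor and set the speed of a fibre, Myh4 alone of the 3 tested passed in males. Myh4 read 5808, 6546, 4415 and 5895 CPM in the no-UVB males and 1796, 2220, 2690 and 3780 CPM in the UVB males. Every UVB male was lower, and Myh4 fell by 53.1% (log2 -1.09 ± 0.21, adjusted p = 0.00166). Myh1 read 3725, 3291, 3625 and 2784 CPM without UVB and 4464, 5069, 4377 and 2869 CPM after it. Of the UVB males 3 lay over every no-UVB male and 1 lay among them (log2 0.34 ± 0.17, adjusted p = 0.106). Its adjusted p was 0.055 by DESeq2's Wald test, 0.0987 with DESeq2's size factors, 0.00809 without UVB male replicate 4 and 0.0957 without no-UVB male replicate 3. Myh2, the heavy chain of the slowest of the fast fibres, read 33.7, 61.8, 74.8 and 20.01 CPM without UVB and 33.9, 27.9, 23.3 and 48.3 CPM after it, with overlap (log2 -0.50 ± 0.43, adjusted p = 0.37).

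The makeup of the heavy chains is given as a description, with no test. Per length, Myh4 made 66.1, 71.1, 60.0 and 72.7% of 6 heavy chains (Myh4, Myh1, Myh2, Myh7, Myh3 and Myh8) in the no-UVB males and 33.5, 35.5, 43.6 and 62.1% in the UVB males. The ranges met only where UVB male replicate 4 stood over no-UVB male replicate 3. Myh1 made up nearly all of the rest, at 27.1 to 38.9% without UVB and 37.2 to 65.8% after it. In females the Myh4 share was 54.9, 68.2, 46.3 and 64.3% without UVB and 52.1, 32.8, 47.2 and 61.4% after it, with means of 58.42 ± 9.811% and 48.39 ± 11.96% (SD, n = 4) and overlapping ranges. In males the means were 67.48 ± 5.704% and 43.68 ± 13.01%, so that the mean was lower after UVB in both sexes. The embryonic chain Myh3 and the neonatal chain Myh8 reached at most 0.0331% and 0.181% in any library.

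**Figure D2:**
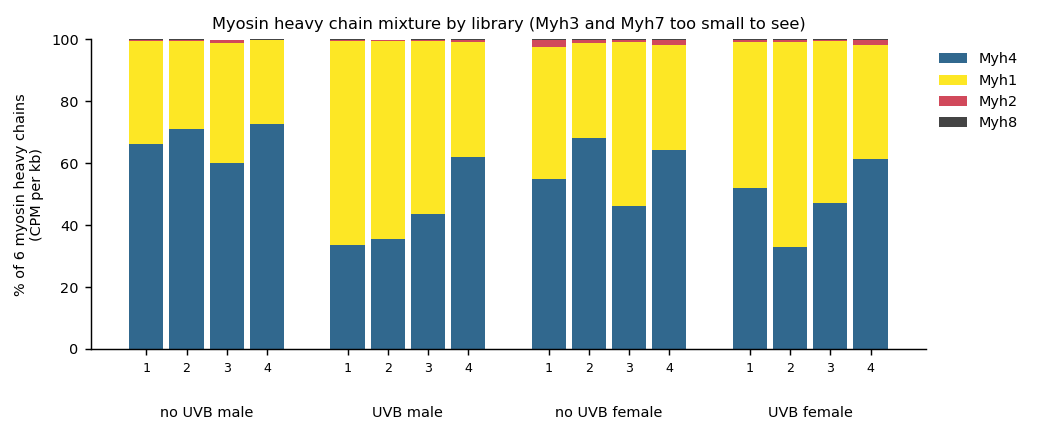
Share of each myosin heavy chain in the summed CPM per kb of 6 heavy chains (y axis, percent) in each library, grouped by sex and treatment, with replicate numbers on the x axis. Myh4 makes 60.0 to 72.7% in no-UVB males and 33.5 to 62.1% in UVB males, and Myh1 fills nearly all of the rest.

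The 4 tested light chains and binding proteins of the thick filament fell in males, while Myl2 and Myl3 were too low to test. Myl1 read 1144, 1277, 1209 and 1360 CPM without UVB and 604, 697, 702 and 584 CPM after it, without overlap, and fell by 47.3% (log2 -0.93 ± 0.09, adjusted p = 1.34e-05). Mylpf fell by 33.1% (log2 -0.58 ± 0.10, adjusted p = 0.000727). The fast myosin binding protein Mybpc2 read 432 to 611 CPM without UVB and 187 to 309 CPM after it and fell by 51.6% (log2 -1.05 ± 0.15, adjusted p = 0.000314). Its slow partner Mybpc1 fell by 18.6% (log2 -0.30 ± 0.07, adjusted p = 0.00367). Per length, Mybpc2 made 45.4 to 52.4% of the pair in no-UVB males and 31.1 to 42.3% in UVB males.

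Of 8 tested thin filament genes 7 fell in males. Acta1 read 5995, 7038, 5685 and 5977 CPM without UVB and 3994, 5151, 4374 and 3633 CPM after it. Each UVB male was lower than each no-UVB male, and Acta1 fell by 29.5% (log2 -0.50 ± 0.13, adjusted p = 0.00641). The fast troponins Tnnt3, Tnni2 and Tnnc2, the calcium switch of the filament, fell by 29.7%, 30.1% and 37.6%, and muscle tropomyosin Tpm2 fell by 24.1%. Slow troponin T, Tnnt1, fell by 47.7% (log2 -0.94 ± 0.21, adjusted p = 0.00325) at a low level, 1.72 to 2.99 CPM without UVB and 1.12 to 1.53 CPM after it. Nebulin (Neb), which runs along the filament and sets its length, fell by 14.7% (log2 -0.23 ± 0.09, adjusted p = 0.0478). The adjusted p of Neb was 0.256 with all 16 libraries in the fit, 0.11 without UVB male replicate 3, 0.107 without UVB male replicate 4 and 0.149 without no-UVB male replicate 3. Tnni1 did not pass (log2 -0.28 ± 0.48, adjusted p = 0.653).

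At the Z-disc, where thin filaments are tied together, and in the M-band and titin, 10 of 12 genes fell in males. Actn3, the alpha-actinin of fast fibres, read 463, 519, 431 and 489 CPM in no-UVB males and 152, 232, 216 and 227 CPM in UVB males. The highest UVB male lay far under the lowest no-UVB male, and Actn3 fell by 55.9% (log2 -1.18 ± 0.12, adjusted p = 3.03e-05), the largest fall of the 41 members in this fit. Its partner Actn2, found in all fibres, fell by 17.7% with overlap between the groups (log2 -0.28 ± 0.12, adjusted p = 0.063). The adjusted p of Actn2 was 0.152 without UVB male replicate 3, 0.157 without UVB male replicate 4 and 0.19 without no-UVB male replicate 3. Actn3 made 59.3 to 68.4% of the pair without UVB and 41.3 to 56.9% after it, per length.

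The Z-disc proteins Myoz1, Ldb3, Xirp2, Tcap and Myot fell by 39.4%, 29.4%, 24.8%, 21.4% and 21.2% in males. The M-band proteins Myom2 and Myom1, which hold thick filaments together, fell by 20.9% and 13.5%. Desmin (Des), a filament that links Z-discs and is also made in smooth muscle, fell by 13.2% (log2 -0.20 ± 0.09, adjusted p = 0.0884). Its adjusted p was 0.184, 0.17 and 0.219 without UVB male replicates 1, 3 and 4 in turn, 0.166 and 0.226 without no-UVB male replicates 1 and 2, and 0.123 with all 16 libraries in the fit. Titin (Ttn), the spring of the sarcomere, did not pass (log2 -0.24 ± 0.14, adjusted p = 0.155), nor did Myoz2 (log2 0.23 ± 0.15, adjusted p = 0.236).

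Of 6 genes of calcium handling 5 fell in males. Pvalb, the calcium buffer that speeds relaxation, read 691, 797, 542 and 758 CPM without UVB and 295, 328, 338 and 382 CPM after it. No UVB male reached the lowest no-UVB male, and Pvalb fell by 51.2% (log2 -1.03 ± 0.12, adjusted p = 4.20e-05). Casq1, which binds calcium in the reticulum of fast fibres, fell by 45.3% (log2 -0.87 ± 0.08, adjusted p = 1.14e-05). Atp2a1 fell by 33.3%, the calcium release channel Ryr1 fell by 30.4% and its voltage sensor Cacna1s fell by 27.7%. Triadin (Trdn), which anchors calsequestrin at the release channel, read 169 to 209 CPM without UVB and 148 to 235 CPM after it (log2 -0.08 ± 0.14, adjusted p = 0.651).

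Of 8 genes of energy supply 7 fell in males. Ckm read 2066, 2317, 1718 and 2041 CPM without UVB and 1056, 1325, 1222 and 1114 CPM after it. Every UVB male was lower, and Ckm fell by 41.2% (log2 -0.77 ± 0.11, adjusted p = 0.000165). The glycolytic genes Pgam2 and Eno3 fell by 39.7% and 37.0%, and glycogen phosphorylase Pygm, which opens glycogen stores, fell by 36.6%. AMP deaminase Ampd1 read 30.7 to 58.2 CPM without UVB and 16.8 to 25.9 CPM after it and fell by 51.8% (log2 -1.05 ± 0.22, adjusted p = 0.00391). The muscle forms of subunits of cytochrome oxidase, Cox8b and Cox6a2, fell by 32.1% and 23.5%. Mb read 359.6, 308, 381 and 416 CPM without UVB and 409.7, 484, 364 and 333 CPM after it, with overlap (log2 0.14 ± 0.12, adjusted p = 0.355).

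**Figure D3:**
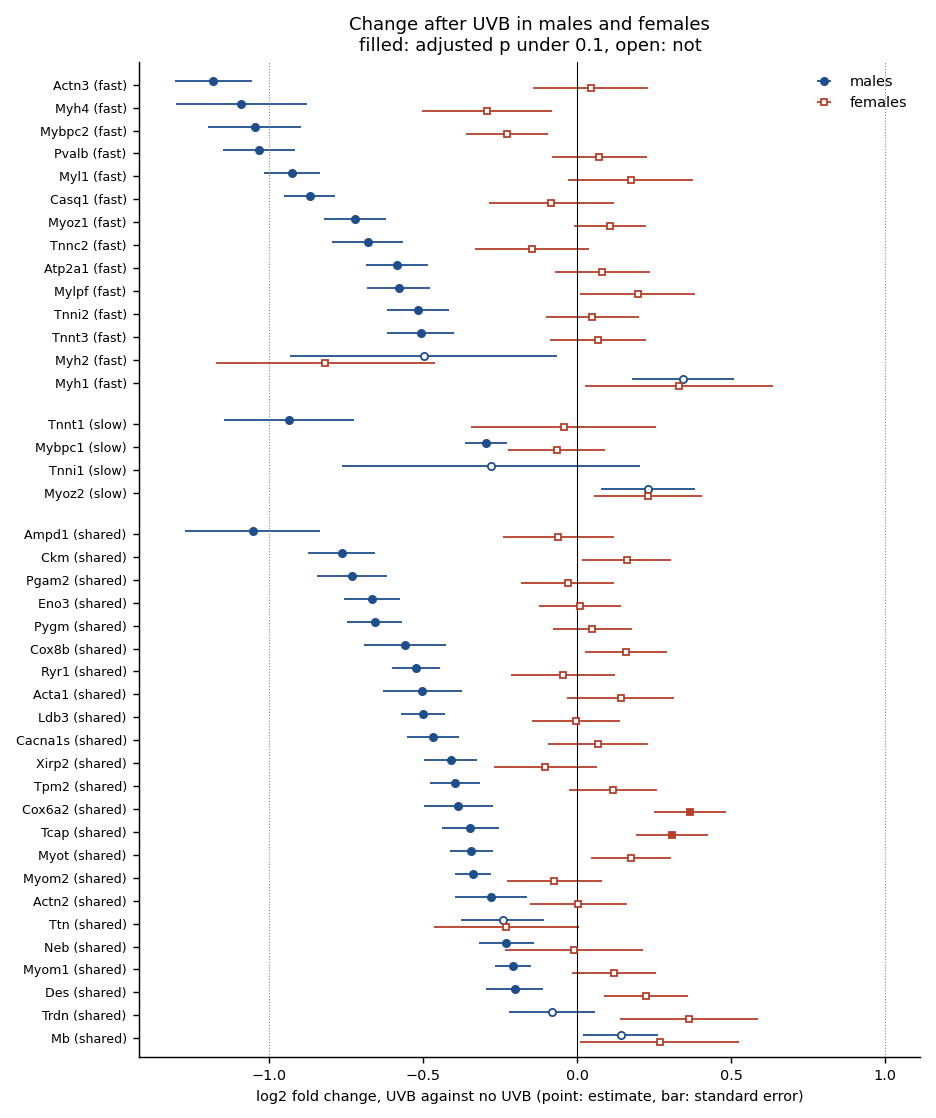
Log2 fold change with standard error (x axis) of each tested member, UVB against no UVB, in males and females, ordered within fast, slow and shared genes. Filled marks passed an adjusted p of 0.1. In males 38 of 41 genes lie left of 0, down to -1.18 for Actn3, while females lie on both sides of 0.

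In females 2 of 40 members rose and 0 fell, against 12.8% and 10.6% of the 16883 genes tested. DESeq2's Wald test gave the counts 2 and 0, and 1 member was lower at an unadjusted p under 0.05 in edgeR. With the fold threshold 0 members rose and 0 fell, against 1.63% and 1.08% of genes. The count of members that fell was 1 without UVB female replicate 4 (Myh2, adjusted p = 0.0362) and 1 without no-UVB female replicate 1 (Mybpc2, adjusted p = 0.0748). The median log2 fold change was 0.06 over the members and 0.00 over all genes, and it was -0.01 without UVB female replicate 3 and -0.03 without no-UVB female replicate 1. The groups of females overlapped for all 40 members, whereas 10.1% of genes were lower and 11.1% higher in every UVB female. The summed level was 26270, 32700, 38180 and 37770 CPM in no-UVB females and 32650, 37080, 40300 and 28600 CPM in UVB females. Libraries within each group of females spread further than the group means lay apart.

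The genes that rose in females were Cox6a2 and Tcap. Cox6a2 read 66.6, 71.7, 61.5 and 73.6 CPM in no-UVB females and 103, 82.9, 95.0 and 69.4 CPM in UVB females. Of the UVB females 3 lay over every no-UVB female (log2 0.37 ± 0.12, adjusted p = 0.0607). Tcap, which caps titin at the Z-disc, read 286, 317, 270.1 and 298 CPM and 394, 338, 416 and 294 CPM and rose by 23.8% (log2 0.31 ± 0.12, adjusted p = 0.0992). Cox6a2 missed the threshold without UVB female replicate 1 or 3 and without no-UVB female replicate 1 or 3, with adjusted p of 0.158, 0.146, 0.109 and 0.144. Tcap missed it without any female library other than UVB female replicate 4, with adjusted p from 0.104 to 0.238. With the replicate number as a block in the fit neither gene passed, and Myh2 fell.

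The 5 members past the fold threshold in males did not pass in females. Actn3 read 181, 294, 248 and 376 CPM in no-UVB females and 271, 266, 312 and 276 CPM in UVB females (log2 0.04 ± 0.19, adjusted p = 0.902). Myh4 read 2633, 4263, 3610 and 4293 CPM and 3014, 2070, 3653 and 3293 CPM (log2 -0.29 ± 0.21, adjusted p = 0.386). Mybpc2 read 284, 352, 375 and 457 CPM and 317, 305, 331 and 294 CPM (log2 -0.23 ± 0.13, adjusted p = 0.277). The female groups overlapped for these genes. Ampd1 read 22.3, 33.5, 40.5 and 40.3 CPM and 29.1, 29.4, 38.4 and 33.4 CPM (log2 -0.06 ± 0.18, adjusted p = 0.853). Pvalb read 350.2, 419, 390.3 and 500.2 CPM and 428, 489, 496 and 323 CPM (log2 0.07 ± 0.15, adjusted p = 0.795). These too overlapped, as did Ckm (log2 0.16 ± 0.14, adjusted p = 0.489).

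**Figure D4:**
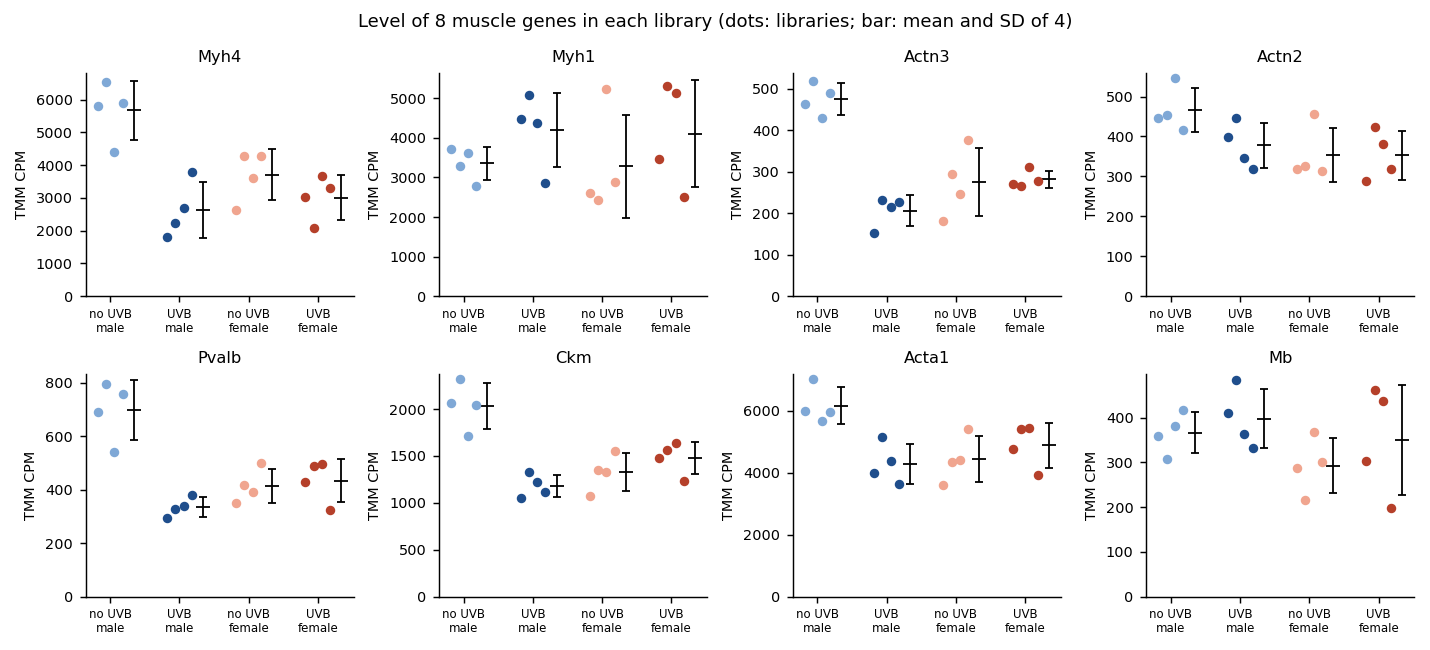
TMM CPM (y axes, from 0) of 8 muscle genes in each library, with the mean and SD of 4 libraries beside the dots. For Myh4, Actn3, Pvalb, Ckm and Acta1 the 4 no-UVB males lie over the 4 UVB males, while Myh1, Actn2 and Mb overlap, as do all 8 genes between the groups of females.

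The responses of the sexes were compared directly over the 16 libraries. For 22 of 41 members the response was lower in males and for 0 it was higher, against 4.25% and 2.75% of the 17406 genes tested. DESeq2's Wald test gave 24 and 0, and 29 and 0 had an unadjusted p under 0.05 in edgeR. The 22 were 10 of 14 fast, 0 of 4 slow and 12 of 23 shared genes, and the median was -0.59 over the members and -0.02 over all genes. The difference was largest for Actn3 (log2 -1.24 ± 0.24, adjusted p = 0.0184), Pvalb (log2 -1.12 ± 0.21, adjusted p = 0.0154) and Myl1 (log2 -1.11 ± 0.23, adjusted p = 0.0236), and Ckm also passed (log2 -0.94 ± 0.18, adjusted p = 0.0168). Myh4 did not pass (log2 -0.81 ± 0.32, adjusted p = 0.159), so its fall in males was not shown to differ from the response in females. The count of 22 turned on single libraries. It was 9 without no-UVB male replicate 2, 10 without UVB male replicate 1, 11 without no-UVB female replicate 1, 12 without UVB female replicate 2 or no-UVB female replicate 2 and 13 without UVB female replicate 1. It was 14 without UVB male replicate 3, no-UVB male replicate 1 or no-UVB male replicate 4. Some markers of other cells also passed in this comparison. Of 7 dermal fibroblast markers 3 (Col1a1, Col1a2 and Lum) had a lower response in males, 2 of them past the fold threshold, with a median of -0.59. Of 6 keratinocyte markers 1, Krt14, had a higher response. No white adipocyte or smooth muscle marker passed in either direction in edgeR, and the medians were -0.53 over 12 and -0.28 over 11 markers. Their part in the result was not tested.

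Without irradiation, 18 of 41 members were higher in males and 0 lower, against 7.21% and 4.58% of genes, and the median log2 difference was 0.38 over the members. DESeq2's Wald test gave 23 and 0, and 1 member, Myh2, was lower at an unadjusted p under 0.05 in edgeR. The difference of Myh2 was larger in size than that of any other member but was not called (log2 -1.03 ± 0.42, adjusted p = 0.164). In 19 members every no-UVB male lay over every no-UVB female, as in 7.8% of genes. The largest called differences were those of Actn3 (log2 0.79 ± 0.17, adjusted p = 0.0106), Myl1 (log2 0.78 ± 0.17, adjusted p = 0.00818) and Pvalb (log2 0.75 ± 0.15, adjusted p = 0.00488). The count of 18 was 11 without no-UVB female replicate 2 and 11 without no-UVB male replicate 2. Dermal fibroblast markers moved with this comparison: 4 of 7 were higher in no-UVB males, 3 of them past the fold threshold, and their sums were 79630 to 86880 CPM in no-UVB males and 19750 to 21020 CPM in no-UVB females. Of 11 smooth muscle markers 2, Tagln and the member Des, were higher, and of 12 white adipocyte markers 1, Acvr1c, was lower. Their part in the result was not tested.

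After UVB 7 members were lower in males (Actn3, Pvalb, Tnnt1, Ckm, Tcap, Ampd1 and Cox6a2) and 0 higher, against 12.5% and 12.8% of genes, and the median was -0.19. DESeq2's Wald test gave 7 and 0, and 0 were higher at an unadjusted p under 0.05 in edgeR. In 3 members (Actn3, Tnnt1 and Ampd1) every UVB male lay under every UVB female, as in 9.76% of genes. The count of 7 was 1 without UVB male replicate 1, 2 without UVB male replicate 3, UVB female replicate 1 or UVB female replicate 2, 3 without UVB female replicate 3, 4 without no-UVB male replicate 4 and 12 without UVB female replicate 4. It was also smaller with DESeq2 size factors or a looser gene filter, and larger with upper quartile scaling, as the closing section gives. Markers of other cells differed as well: 10 of 12 white adipocyte markers and 3 of 11 smooth muscle markers were lower in UVB males than in UVB females, and 4 of 6 keratinocyte markers and 3 of 7 fibroblast markers were higher. The adipocyte sums were 3054 to 4022 CPM in UVB males and 3554 to 7383 CPM in UVB females, and the keratinocyte sums 20830 to 29970 and 11770 to 15160 CPM. Their part in the result was not tested. With the fold threshold 0 members were called in either comparison of the sexes, against 1.13% of genes higher and 0.781% lower in no-UVB males and 1.37% higher and 1.47% lower in UVB males. These comparisons use the same libraries as the comparison of the responses.

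Most members varied alike from library to library. As a description over 16 libraries that share the structure of the groups, the Pearson r of a member's log2 CPM with the mean of the 41 tested members was 0.961 for Eno3, 0.95 for Myl1 and 0.945 for Ckm, but 0.318 for Mb, 0.183 for Myh1 and -0.11 for Myh2. Of 17297 other genes those most like the mean were Smyd1 (0.972), Hspb2 (0.958), Fsd2 (0.955), Stac3 (0.954), Sh3bgr (0.954), Scn4a (0.953), Tmod1 (0.953), Eef1a2 (0.951), Trim54 (0.951) and Dhrs7c (0.951). Smyd1 encodes a muscle methyltransferase needed to build sarcomeres, Stac3 a protein of excitation-contraction coupling and Scn4a the sodium channel of skeletal muscle.

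Of 57 further fibre genes 56 were tested in males, and 42 fell and 3 rose, with a median of -0.36, beside 30.5% of all genes tested that fell and 29.0% that rose. Mitochondrial creatine kinase Ckmt2 read 92.6 to 107 CPM without UVB and 48.3 to 53.3 CPM after it (log2 -0.95 ± 0.06, adjusted p = 1.10e-06). Those that rose were Tpm3 (log2 0.36 ± 0.06, adjusted p = 0.000381), the calcium pump Atp2a2 of slow fibres (log2 0.43 ± 0.06, adjusted p = 0.000131) and sarcolipin, Sln, an inhibitor of calcium pumps (log2 0.92 ± 0.19, adjusted p = 0.00256). Tpm3 and Atp2a2 are also expressed in many cells other than muscle. In females 5 of the 56 rose, a smaller share than the 12.8% of all genes, among them the myosin light chain kinase Mylk2 (log2 0.35 ± 0.10, adjusted p = 0.039). For 18 of the 56 the response was lower in males and for 1, Atp2a2, it was higher, beside 4.25% and 2.75% of all genes.

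Genes of developing muscle were low. Of 11 such genes 6 were tested in males and 5 fell, beside 30.5% of all genes, among them the myogenic factors Myog (log2 -1.08 ± 0.41, adjusted p = 0.0486), Myod1 (log2 -0.53 ± 0.24, adjusted p = 0.0859) and Myf6 (log2 -0.38 ± 0.13, adjusted p = 0.0285). Ncam1, a cell adhesion molecule, fell in males (log2 -0.65 ± 0.13, adjusted p = 0.00163) and in females (log2 -0.53 ± 0.13, adjusted p = 0.0187). The fusion genes Mymk and Mymx had means of 0.219 and 0.0558 CPM. Of 7 tested genes of satellite cells, the stem cells of muscle, 2 fell in males, near the 30.5% of all genes: Cdon (log2 -0.85 ± 0.10, adjusted p = 3.42e-05) and Megf10 (log2 -0.85 ± 0.23, adjusted p = 0.00901). Cdon fell in females too (log2 -0.65 ± 0.12, adjusted p = 0.00491), and its responses in the sexes were not shown to differ (log2 -0.22 ± 0.16, adjusted p = 0.451). Pax7, which defines these cells, had means of 1.39 and 1.41 CPM in no-UVB and UVB males (log2 0.06 ± 0.25, adjusted p = 0.856). Of 11 genes tied to muscle wasting 3 fell and 3 rose in males, near the 30.5% and 29.0% of all genes, so the counts say nothing about the list. The ubiquitin ligases Fbxo32 (log2 -0.53 ± 0.12, adjusted p = 0.00429) and Trim63 (log2 -0.73 ± 0.19, adjusted p = 0.012) fell, and Eda2r (log2 0.33 ± 0.09, adjusted p = 0.00678) and Fbxo30 (log2 0.28 ± 0.09, adjusted p = 0.0185) rose.

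Markers of other skin cells moved in males too, and their counts stand beside 30.5% of all genes that fell and 29.0% that rose. Of 11 smooth muscle markers, which include Des, 8 fell, and the sum of the other 10 was 826 to 945 CPM without UVB and 559 to 665 CPM after it. Of 12 white adipocyte markers 8 fell, with overlapping sums of 3655 to 5264 and 3054 to 4022 CPM. Of 7 dermal fibroblast markers 6 fell, with sums of 79630 to 86880 and 28750 to 39690 CPM, led by the collagens Col1a1 (log2 -1.66 ± 0.15, adjusted p = 8.37e-06) and Col1a2 (log2 -1.57 ± 0.16, adjusted p = 1.46e-05). Of 6 keratinocyte markers 4 rose and 1 fell, with sums of 8860 to 13560 and 20830 to 29970 CPM. The part of these shifts in the fall of the muscle genes was not tested.

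In females the sums of smooth muscle markers were 769.7 to 847 CPM without UVB and 672 to 758 CPM after it, and those of fibroblast markers 19750 to 21020 and 12660 to 22540 CPM. Keratinocyte markers summed to 7541 to 11580 and 11770 to 15160 CPM, and white adipocyte markers to 3807 to 5948 and 3554 to 7383 CPM. Of 10 heart muscle markers 5 were tested and fell in males, and the sum was 22.9 to 34.3 CPM without UVB and 12.5 to 15.3 CPM after it. The heart-defining genes Myh6 and Nppa had at most 4 and 1 counts in a library. The 5 heart markers that fell, beside 30.5% of all genes, include Actc1, which is also among the further fibre genes, and Myl4, which is also among the genes of developing muscle. Of 8 tested brown adipocyte markers 4 fell and 2 rose in males, and of the 4 Cox8b is a member and Cox7a1 one of the further fibre genes. The 2 that rose are no larger a share than the 29.0% of all genes. The defining gene Ucp1 had at most 3 counts.

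**Figure D5:**
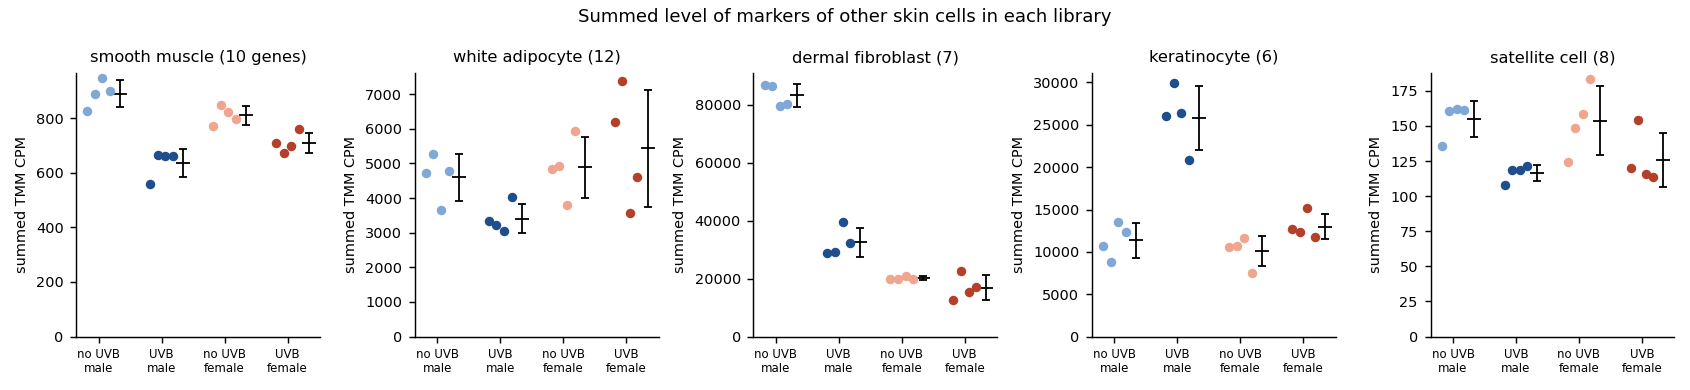
Summed TMM CPM (y axes, from 0) of marker lists of other cells in each library, with the mean and SD of 4 libraries beside the dots. Fibroblast markers lie at 79630 to 86880 in no-UVB males and 28750 to 39690 in UVB males, keratinocyte markers at 8860 to 13560 and 20830 to 29970.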

How the data were processed

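RNA of whole dorsal skin from 16 mice was sequenced as poly(A) strand-specific libraries. The authors aligned reads with STAR to GRCm39 and deposited raw read counts per gene. The column of the kit's strand was used here, and of 55359 genes 54749 were matched to GENCODE M39 and 610 were not. The marker Lor was not matched. Groups followed the labels, with 4 mice each. Genes were filtered with filterByExpr and scaled by TMM, and edgeR 4.0.16 in R 4.3.3 gave robust quasi-likelihood tests with Benjamini-Hochberg adjustment, in 8 libraries for each sex and in 16 libraries for the other comparisons. Calls were made at an adjusted p under 0.1, the study's threshold, and also with an unshrunk log2 fold change past 1, where the study used apeglm-shrunk values. The scripts were tested on simulated data.

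The members and lists were chosen with earlier results of these data known. All 45 members were followed. Of each other list the gene with the highest mean CPM and, per comparison, up to 2 called genes with the smallest adjusted p were named, and of all other genes the 10 most correlated with the mean of the members. Myog, Myod1, Pax7, Trim63, Mymk, Mymx, Myh3, Myh8, Sln, Tpm3, Atp2a2, Myh6, Nppa and Ucp1 were named after their values were seen, some of them also by that rule. Alternatives were DESeq2 1.42.0, apeglm 1.24.0, other scalings, filters, thresholds, strands and samples. Between replicates the chi-square per degree of freedom was 9.54 to 98.3, so none was a repeated library. Depth was 16495776 to 33404831 gene reads, and for abundant genes the spread between mice exceeded counting error.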

Additional observations from a re-analysis of the deposited data

Results flagged for a closer look

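Among the 164 combinations of a tested member and a group of 4 mice, 5 held a library that stood apart from its group by Dixon's criterion (the gap to the nearest library over the range of the group), where chance alone gives about 1 in 20. Myh1 was highest in no-UVB female replicate 3 at 5222 CPM, with the nearest library of its group at 2872 CPM and a gap of 0.843 of the range. Myoz1 was lowest in UVB female replicate 4 at 125.7 CPM, with the nearest library of its group at 169.9 CPM and a gap of 0.901 of the range. Tnni1 was highest in UVB female replicate 2 at 0.7211 CPM, with the nearest library of its group at 0.3603 CPM and a gap of 0.912 of the range. Actn2 was highest in no-UVB female replicate 3 at 456 CPM, with the nearest library of its group at 327.1 CPM and a gap of 0.902 of the range. Ryr1 was lowest in UVB male replicate 1 at 449.1 CPM, with the nearest library of its group at 515.1 CPM and a gap of 0.914 of the range.

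The response to UVB differed between the sexes for 22 members by the interaction term of edgeR's quasi-likelihood test over 16 libraries. On the log2 scale, as male minus female response, the difference was -1.24 for Actn3, -0.79 for Mylpf, -1.11 for Myl1, -0.59 for Tnnt3, -0.58 for Tnni2, -0.68 for Atp2a1, -0.80 for Casq1, -1.12 for Pvalb, -0.83 for Mybpc2, -0.84 for Myoz1, -0.66 for Acta1, -0.53 for Tpm2, -0.94 for Ckm, -0.72 for Pygm, -0.69 for Eno3, -0.51 for Ldb3, -0.67 for Tcap, -0.53 for Myot, -0.71 for Pgam2, -1.01 for Ampd1, -0.77 for Cox6a2 and -0.73 for Cox8b. The adjusted p ran from 0.0154 to 0.099.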

How the results depend on the processing

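The count of members that fell in males stayed within 31 to 35 under every alternative tried, and leaving out single libraries gave the same range. Those passing the fold threshold in males numbered 5 and became 1 with apeglm shrinkage and 1 to 6 without single libraries. The members that rose in males numbered 0 and became 1 with DESeq2 size factors, 1 with DESeq2's Wald test and 0 to 2 without single libraries, where Myoz2 joined Myh1 without UVB male replicate 4 (adjusted p = 0.0122). In females the 2 that rose became 0 at an adjusted p under 0.05, 1 with DESeq2 size factors, 1 with upper quartile scaling, 1 with at least 10 counts in every library and 0 to 2 without single libraries, and the 0 that fell became 0 to 1. The 22 members with a lower response in males became 11 at an adjusted p under 0.05, 14 with every gene of at least 1 count kept and 9 to 23 without single libraries. The 18 higher in males without UVB became 11 to 25 without single libraries. The 7 lower in males after UVB became 2 at an adjusted p under 0.05, 3 with DESeq2 size factors, 11 with upper quartile scaling, 4 with every gene of at least 1 count kept and 1 to 12 without single libraries. The log2 change of the ratio of fast to slow sums was -0.27 in males and became -0.52 without the highest gene of each list, and in females 0.09 became -0.0736. The highest slow gene was Mybpc1, and Myoz2 made most of the rest of the slow sum. The median member change in females, 0.06, became -0.0087 without UVB female replicate 3 and -0.0327 without no-UVB female replicate 1, and leaving out single libraries gave -0.0327 to 0.1624. The causes were not tested.

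The replicate numbers of the labels are shared between groups. Deviations from the group means correlated at -0.115 to 0.216 between same-numbered libraries of a sex. Female replicates 1 and 3 correlated more with the same number (0.155 and 0.216) than with any other (at most 0.0108 and 0.0915). For female replicates 2 and 4 and for every male replicate another number correlated more. So few pairs cannot decide whether the numbers mark a pairing. With the replicate block the members that rose became 1 in males and 0 in females, 1 fell in females (Myh2, -0.92, adjusted p = 0.0313), and the other counts were 34 fallen in males, 20 with a lower response in males, 22 higher in males without UVB and 6 lower in males after UVB. At this depth Myh7, Myl2, Myl3 and Tnnc1 could not be compared.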
